A study of Mus musculus with 7 samples.

Results

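Plasmacytoid dendritic cell markers are genes by which this interferon-producing kind of dendritic cell is told from other dendritic cells. They were chosen by name as 10 genes, Siglech, Ly6d, Ly6c2, Pacsin1, Spib, Runx2, Lair1, Cd300c, Lag3 and Plac8, and their probes were found through the RefSeq accession that the array files give for each probe. Of 55681 probes, 13 matched, and they read 8 of the 10 genes. No probe matched Ly6c2 or Cd300c by accession, so these 2 genes have no value here. All 13 probes passed the filter on dim signals, 11 of them well above background on all 7 arrays.

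The study measured RNA of dendritic cells on 7 one-colour Agilent microarrays, 3 labelled knockout and 4 control. The cells grew from common myeloid progenitors, bone marrow cells that give rise to the myeloid lineages, sorted from C57BL/6 mice. Donors of the arrays labelled knockout were Gata2(f/f)/ER-Cre mice, whose floxed Gata2 gene, encoding a transcription factor of blood progenitors, can be deleted by a Cre recombinase that tamoxifen switches on. Donors of the control arrays were Gata2(f/f) mice without the Cre. Both groups received tamoxifen, and both sets of progenitors were cultured with FLT3 ligand (FLT3-L) on bone marrow feeder cells of SJL mice. The labels do not state how feeder cells were removed, nor whether replicates are separate animals, so the spread behind each p-value may be technical.

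Plasmacytoid dendritic cells sense viral nucleic acids through endosomal Toll-like receptors and answer with type I interferon. Their identity depends on the E protein Tcf4 (E2-2), which binds E-boxes, with Spib and Runx2 acting beside it, while the inhibitor Id2 opposes E proteins. In bone marrow they arise under FLT3 ligand from both myeloid and lymphoid progenitors.

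All values are log2 of the scanner's processed signal minus the log2 of the same array's 75th percentile, called the relative signal below, so a value of 0 is a spot at that percentile. The Gata2 probe itself averaged 2.99 ± 0.06 (SD, n = 3) on the arrays labelled knockout and 0.17 ± 0.29 (SD, n = 4) on the control arrays, 7.08-fold higher in the arrays labelled knockout (limma adjusted p = 0.000411). This goes against the label if the probe lies in the deleted part of the gene. The sources used here do not place it, so every direction is that of the arrays as labelled. The share of spots well above background was 61.5% to 67.4% in the group labelled knockout and 54.1% to 56.9% in controls. The median relative signal of an array's negative control spots averaged -8.78 ± 0.41 (SD, n = 3) on the arrays labelled knockout. On the control arrays it averaged -7.59 ± 0.14 (SD, n = 4), so the floor was lower in the group labelled knockout. The part of this floor in the lower values of dim probes was not tested. All arrays came from 1 slide and 1 scan. By the scanner files each group held its own row of the slide, so row, Cre and deletion cannot be told apart.

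The comparison asks whether the marker genes differ between cells of donors with and without the Cre. None of the 13 probes passed the threshold of 0.05 (limma, adjusted over all 34084 tested probes, adjusted p from 0.06 to 0.991). Over all tested probes, 0.522% were called lower and 0.845% higher. At an unadjusted p under 0.05, 5 of the 13 probes were lower and none higher, against 4.91% of all tested probes lower. The median log2 fold change of the 13 probes was -0.33, against -0.026 over all tested probes. In 12 of the 13 probes the difference was below 0, as in 54.1% of all tested probes, and it was so in 11 with median scaling and 10 with quantile normalization. The arrays labelled knockout lay wholly below the control arrays for 6 probes of 5 genes, Siglech, Lair1, Lag3, Ly6d and Spib. Over all tested probes this held for 5.95%, and 5.3% lay wholly above, as none of the 13 did. Probes of one gene share their RNA, and these markers can share cells, so the 13 probes are not independent. In RNA of many cells, fewer cells of a type and less RNA per cell cannot be told apart.

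**Figure D1:**
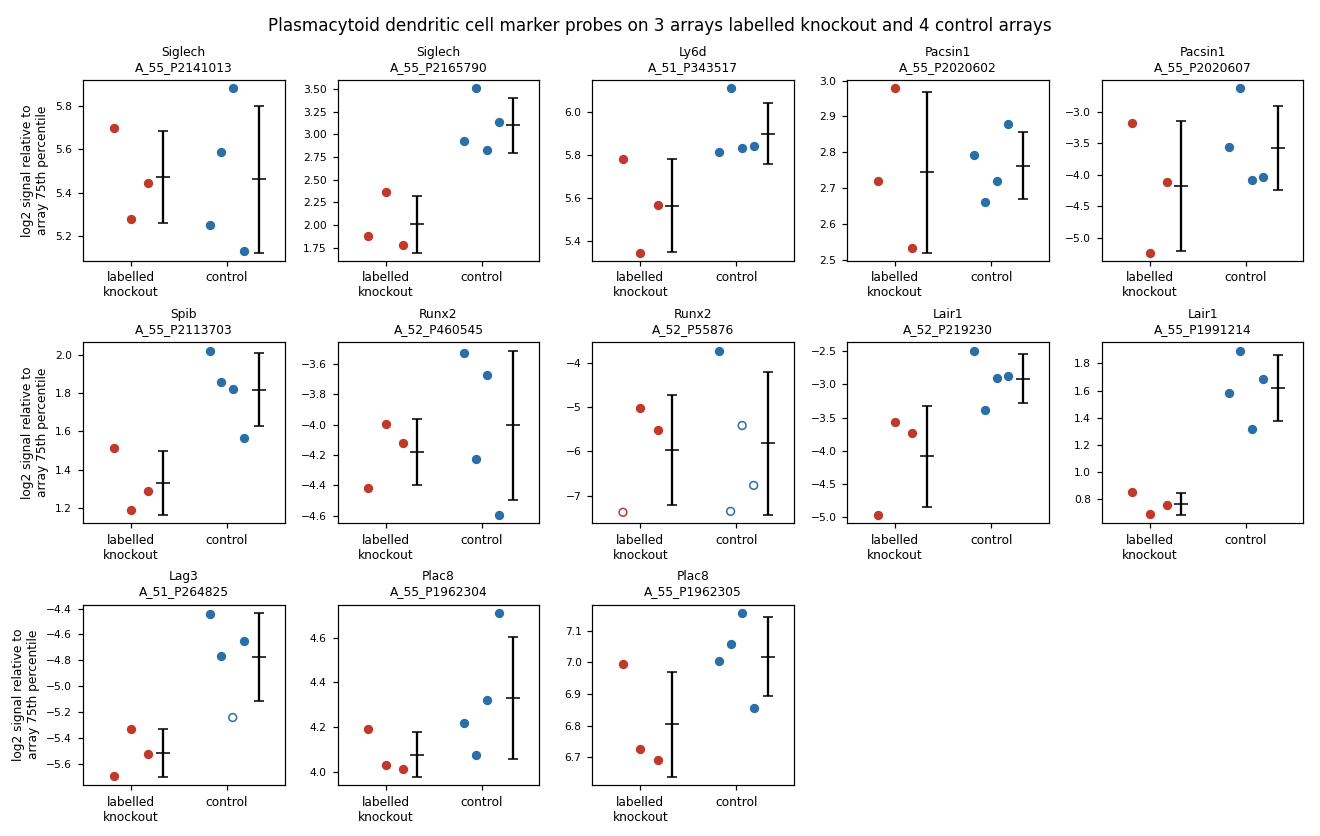
Relative signal (log2, vertical axis, a separate scale in each panel) of the 13 marker probes on the 3 arrays labelled knockout (red) and the 4 control arrays (blue). Bars give the mean and SD of each group, and open circles are spots not well above background. In 6 panels, among them the Siglech probe A_55_P2165790 and both Lair1 probes, all red points lie below all blue points.

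Siglech encodes a sialic acid binding lectin of the plasmacytoid cell surface that signals through the adaptor Tyrobp (DAP12). It was read by a pair of probes under 1 accession (NM_178706), and they differed in what they showed. Because Siglech is a marker by which mouse plasmacytoid cells are defined, its promoter window is shown here. It covers 250 bases before to 50 after the transcription start (RefSeq, GRCm38.p6, chr7:55767934-55768233, plus strand, 5′ to 3′), with each E-box (CANNTG, the same on both strands) in capitals.
Siglech: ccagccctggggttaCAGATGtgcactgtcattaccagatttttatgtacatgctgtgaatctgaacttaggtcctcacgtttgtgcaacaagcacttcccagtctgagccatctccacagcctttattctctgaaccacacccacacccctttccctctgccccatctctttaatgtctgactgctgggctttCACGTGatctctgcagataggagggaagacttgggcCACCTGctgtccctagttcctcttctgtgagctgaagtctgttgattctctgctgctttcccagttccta
The window held 3 E-boxes, and 72.3% of all 32851 promoter windows of this length hold at least 1.

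The Siglech probe A_55_P2165790 read 1.88, 2.36 and 1.78 on the arrays labelled knockout, against 2.93, 3.51, 2.82 and 3.13 on the control arrays. The groups did not overlap, and the lowest control array stood 0.46 above the highest array labelled knockout. Their log2 fold change was -1.09 (SE 0.22, 95% interval -1.60 to -0.58), or 46.9% of the control level, with limma adjusted p = 0.069. The call depended on the processing: it passed in 5 of 20 alternatives (adjusted p from 0.013 to 0.313).

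The Siglech probe A_55_P2141013 read 5.70, 5.28 and 5.44 on the arrays labelled knockout, against 5.25, 5.59, 5.88 and 5.13 on the control arrays. The values of the groups were interleaved. The log2 fold change was 0.01 (SE 0.21, 95% interval -0.49 to 0.51, limma adjusted p = 0.991). Its spots were bright, at 148000 to 173000 intensity units for the arrays labelled knockout and 108000 to 157000 for the control arrays, and none was saturated.

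Within each array, the log2 difference between these probes was 3.83, 2.92 and 3.66 on the arrays labelled knockout, against 2.32, 2.08, 3.06 and 2.00 on the control arrays. The gap was wider by 1.10 on the arrays labelled knockout (two-sided exact permutation p = 0.0857, where the smallest that 35 splits can give is 0.0286). Control replicate 3, at 3.06, lay within the range of the arrays labelled knockout. The difference between the probes did not pass this test. RefSeq lists 3 mRNA accessions for Siglech. The sources used here do not say which part of the transcript each probe reads.

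**Figure D2:**
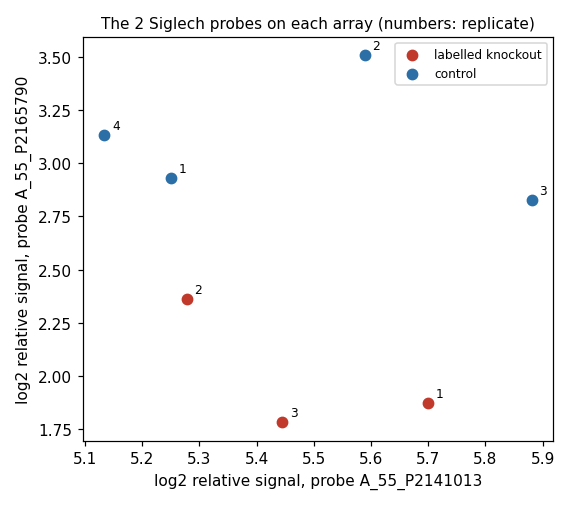
Relative signal (log2) of the Siglech probe A_55_P2141013 (horizontal axis) against that of the probe A_55_P2165790 (vertical axis), 1 point per array, numbered by replicate. The arrays labelled knockout lie at 2.36 or below on the vertical axis and the control arrays at 2.82 or above, while on the horizontal axis the groups are mixed.

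Lair1 encodes an inhibitory receptor for collagen found on many leukocytes, plasmacytoid cells and monocytes among them. Of the 5 genes read by 2 probes, it was the only one whose groups did not overlap on either probe. Its promoter window is set beside that of Spib, described further on, since both genes have a probe without overlap (RefSeq, GRCm38.p6, both on the minus strand, 5′ to 3′, E-boxes in capitals). The Lair1 window lies at chr7:4063155-4063454 and the Spib window at chr7:44532022-44532321.
Lair1: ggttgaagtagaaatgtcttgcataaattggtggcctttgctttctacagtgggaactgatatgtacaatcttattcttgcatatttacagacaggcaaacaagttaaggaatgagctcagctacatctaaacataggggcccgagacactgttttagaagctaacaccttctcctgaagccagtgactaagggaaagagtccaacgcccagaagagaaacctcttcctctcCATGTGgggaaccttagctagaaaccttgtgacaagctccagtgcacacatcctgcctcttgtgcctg
Spib: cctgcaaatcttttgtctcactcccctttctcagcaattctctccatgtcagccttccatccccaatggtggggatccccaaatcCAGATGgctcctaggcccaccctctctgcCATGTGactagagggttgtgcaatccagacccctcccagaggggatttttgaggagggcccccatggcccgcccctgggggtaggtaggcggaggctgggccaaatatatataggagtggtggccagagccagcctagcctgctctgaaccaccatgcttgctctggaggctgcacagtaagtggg
The Lair1 window held 1 E-box and the Spib window 2.

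The Lair1 probe A_55_P1991214 (NM_001113474) read 0.85, 0.69 and 0.76 on the arrays labelled knockout, against 1.58, 1.89, 1.31 and 1.69 on the control arrays. The 3 arrays labelled knockout lay within 0.16 of each other, and 0.46 separated them from the lowest control array. This amounted to a log2 fold change of -0.85 (SE 0.16, 95% interval -1.23 to -0.47), or 55.4% of the control level. Its limma adjusted p of 0.06 was the lowest of the 13 probes, and over 21 alternatives it passed in 6 (adjusted p from 0.0121 to 0.334).

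The dimmer Lair1 probe A_52_P219230 (NM_178611) read -4.97, -3.57 and -3.73 on the arrays labelled knockout, against -2.49, -3.38, -2.91 and -2.87 on the control arrays. Replicate 1 labelled knockout was the lowest value. The log2 fold change of -1.17 had a wider error (SE 0.36, 95% interval -2.02 to -0.33, limma adjusted p = 0.262). The probes carry accessions of different Lair1 transcripts, and their differences point the same way.

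Lag3 encodes an MHC class II binding inhibitory receptor of activated T and natural killer cells that plasmacytoid cells also carry. Its probe read -5.70, -5.33 and -5.52 on the arrays labelled knockout, against -4.44, -4.76, -5.24 and -4.65 on the control arrays. The groups were separated by 0.09 only, and the spot of control replicate 3 did not clear background. The log2 fold change was -0.74 (SE 0.21, 95% interval -1.23 to -0.26, limma adjusted p = 0.212). With normexp background correction it passed (log2 fold change -0.71, adjusted p = 0.0246).

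Ly6d encodes a membrane-anchored Ly6 protein that marks B-lineage progenitors and a plasmacytoid precursor. Its probe was bright, at 5.78, 5.35 and 5.57 on the arrays labelled knockout, against 5.81, 6.11, 5.83 and 5.84 on the control arrays. The groups just missed each other, by 0.03, with a log2 fold change of -0.33 (SE 0.16, 95% interval -0.70 to 0.03, limma adjusted p = 0.519).

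Spib encodes an Ets family transcription factor needed for normal plasmacytoid cells and also used in B cells. It read 1.51, 1.19 and 1.29 on the arrays labelled knockout, against 2.02, 1.86, 1.82 and 1.56 on the control arrays. The groups were separated by 0.05, between replicate 1 labelled knockout and control replicate 4. Its log2 fold change was -0.49 (SE 0.16, 95% interval -0.86 to -0.12), or 71.4% of the control level, with limma adjusted p = 0.297. No alternative brought it past the threshold (adjusted p from 0.107 to 0.759).

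Runx2 encodes a runt domain factor of bone that plasmacytoid cells use for leaving the marrow. Its probe A_52_P460545 read -4.42, -3.99 and -4.12 on the arrays labelled knockout, against -3.53, -4.22, -3.67 and -4.59 on the control arrays. The groups overlapped (log2 fold change -0.17, SE 0.27, 95% interval -0.81 to 0.46, limma adjusted p = 0.864). The other Runx2 probe, A_52_P55876, cleared background on 2 of the 3 arrays labelled knockout and on 1 of the 4 control arrays. Its interval ran from -2.27 to 1.97 (log2 fold change -0.15, limma adjusted p = 0.972), wide enough to hold changes of several fold either way.

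Pacsin1 encodes an adaptor of membrane trafficking, abundant in neurons, that plasmacytoid cells need for their interferon response. Its probe A_55_P2020602 (NM_178365) read 2.72, 2.98 and 2.53 on the arrays labelled knockout, against 2.79, 2.66, 2.72 and 2.88 on the control arrays. The control values lay inside the range of the arrays labelled knockout. The log2 fold change was -0.02 (SE 0.15), and the 95% interval of -0.37 to 0.33 left out changes of 2-fold. The dim probe A_55_P2020607 (NM_011861) read -3.17, -5.23 and -4.11 on the arrays labelled knockout, against -3.55, -2.63, -4.08 and -4.03 on the control arrays. The arrays labelled knockout spanned 2.06 and the control arrays 1.44, wider than the log2 fold change of -0.60 (SE 0.52, limma adjusted p = 0.727).

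Plac8 encodes a small cysteine-rich protein of many myeloid and lymphoid cells. The probe A_55_P1962305 read 7.0, 6.73 and 6.69 on the arrays labelled knockout, against 7.0, 7.06, 7.16 and 6.85 on the control arrays. The probe A_55_P1962304 read 4.19, 4.03 and 4.01 on the arrays labelled knockout, against 4.22, 4.08, 4.32 and 4.71 on the control arrays. Both overlapped between groups, with log2 fold changes of -0.21 (95% interval -0.55 to 0.12) and -0.25 (95% interval -0.67 to 0.16). Their limma adjusted p was 0.661 and 0.668, and both intervals left out a change of 2-fold.

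**Figure D3:**
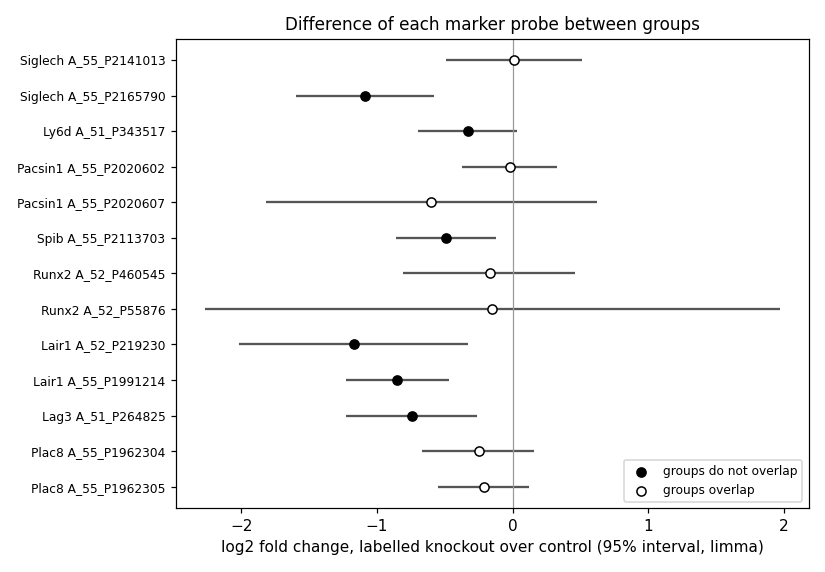
Log2 fold change of each marker probe, arrays labelled knockout over control arrays, with its 95% interval from limma. Filled points are the 6 probes whose groups do not overlap, all below 0, and the interval of the Runx2 probe A_52_P55876, from -2.27 to 1.97, is the widest.

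Promoter windows were found for 8 of the 10 genes, as 10 windows in all. E-boxes were present in 8 windows of 7 genes. The GATA core (GATAA, searched on both strands) was in none of the 10, and 25.4% of all promoter windows hold it. A match or its lack in these letters says nothing of binding.

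Genes that act beside these markers were read from their brightest tested probe, in lists chosen with earlier results known. Over the 14539 genes so read, 1.09% were called higher and 0.901% lower. Shares at an unadjusted p under 0.05 were not computed over these genes. Over all tested probes, 4.91% were lower at that p, and 54.1% had a difference below 0. The share higher at that p was not computed. Of 20 tested transcription regulators of plasmacytoid and other dendritic cells, none was called, 2 had an unadjusted p under 0.05, and the median log2 fold change was -0.02. Tcf4 averaged 3.94 ± 0.26 (SD, n = 3) on the arrays labelled knockout and 3.86 ± 0.10 (SD, n = 4) on the control arrays (log2 fold change 0.09, limma adjusted p = 0.888), and its other probe had a log2 fold change of -0.36 (limma adjusted p = 0.697). Irf8, a factor of dendritic cell development, averaged 5.88 ± 0.18 (SD, n = 3) on the arrays labelled knockout and 6.09 ± 0.04 (SD, n = 4) on the control arrays (log2 fold change -0.21, limma adjusted p = 0.652). Id2 had the largest difference of this list (log2 fold change -0.62, SE 0.19, limma adjusted p = 0.246). It read 4.30, 4.21 and 4.16 on the arrays labelled knockout, against 4.85, 5.07, 5.02 and 4.41 on the control arrays, with no overlap. Zeb2, a repressor active in plasmacytoid cells, had a log2 fold change of -0.57 (limma adjusted p = 0.463), and its other probe -0.67 (limma adjusted p = 0.0557).

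Of 19 tested genes of nucleic acid sensing and interferon signalling, none was called, 2 had an unadjusted p under 0.05, and the median log2 fold change was -0.09. The log2 fold changes were -0.29 for Tlr7 and 0.03 for Tlr9, the endosomal receptors of RNA and DNA, and -0.09 for Irf7, the factor that drives interferon alpha genes. Their limma adjusted p was 0.665, 0.972 and 0.919. Tyrobp, the adaptor that Siglech signals through, read 6.26, 5.97 and 5.74 on the arrays labelled knockout, against 6.24, 6.52, 6.58 and 6.47 on the control arrays. It overlapped only through replicate 1 labelled knockout (log2 fold change -0.46, SE 0.17, limma adjusted p = 0.359). Irak4, a kinase of Toll-like receptor signalling, had a log2 fold change of -0.50 (limma adjusted p = 0.503), with 0.55 on its other probe (limma adjusted p = 0.614). The interferon genes Ifnb1 and Ifna4 were too dim to be tested.

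Of 20 further surface and effector genes of plasmacytoid cells, 2 rose and 1 fell in the arrays labelled knockout. At an unadjusted p under 0.05, 2 were higher and 6 lower, the difference was below 0 in 15 of the 20, and the median log2 fold change was -0.20. The log2 fold changes ran from -2.39 for Gzmb, which was not called (limma adjusted p = 0.341), to 2.21. Dntt, which encodes the terminal transferase that adds bases at antigen receptor joints and is also active in lymphoid progenitors, read 4.94, 4.92 and 4.72 on the arrays labelled knockout. On the control arrays it read 2.85, 2.44, 2.71 and 2.62, so the arrays labelled knockout were 4.63-fold higher (log2 fold change 2.21, SE 0.15, limma adjusted p = 0.000501). Epha2, an ephrin receptor, rose by a log2 fold change of 0.96 (SE 0.15, limma adjusted p = 0.0229), and Tex2 fell by 0.83 on the log2 scale (SE 0.13, limma adjusted p = 0.0248). The call of Epha2 was lost without any one of the arrays other than control replicate 2 (adjusted p from 0.0598 to 0.0883), and that of Tex2 without any one array (adjusted p from 0.0531 to 0.157). Bst2, the plasmacytoid surface antigen tetherin, had a log2 fold change of -0.20 (95% interval -0.57 to 0.17, limma adjusted p = 0.702). Ccr9, a homing receptor of mature plasmacytoid cells, read -0.41, -0.36 and -1.07 on the arrays labelled knockout, against 0.62, 0.67, -0.02 and 0.26 on the control arrays. Its groups did not overlap, but it did not pass (log2 fold change -1.0, SE 0.25, limma adjusted p = 0.144).

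Of 25 tested relatives of the marker genes in the Ly6, Siglec, CD300, Runx, Ets and Pacsin families, none was called, with a median log2 fold change of -0.10, while 7 had an unadjusted p under 0.05, all lower. Cd300lb, an activating receptor of the CD300 family, had the largest difference. It read -0.47, 0.28 and -0.12 on the arrays labelled knockout, against 0.94, 0.75, 1.26 and 1.19 on the control arrays (log2 fold change -1.14, SE 0.22, limma adjusted p = 0.0546). It passed in 9 of 21 alternatives, among them that without replicate 2 labelled knockout (limma adjusted p = 0.0454). Spic, an Ets factor of red pulp macrophages, had a log2 fold change of -0.98 (limma adjusted p = 0.215). Ly6c1, singled out after its value was seen because its sequence is close to that of Ly6c2, had a log2 fold change of -0.42 (limma adjusted p = 0.462).

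Siglech, Tcf4, Irf8 and Bst2 were well above background on all 7 arrays, so RNA of these genes was measured in both groups. Which cells made this RNA was not tested. Several markers are also made by other cells, whose marker lists were read in the same way. Of 10 tested monocyte and macrophage markers, 6 fell and none rose (8 lower at an unadjusted p under 0.05, median log2 fold change -1.18), and their summed signal, in multiples of the array's 75th percentile, was 61.7 to 72.5 on the arrays labelled knockout and 102 to 118 on the control arrays. With 1 array left out, 3 or 4 of these fell, with the count at 3 when the omitted array was replicate 1 or 3 of either group. Cd14, a co-receptor for lipopolysaccharide, fell by 1.61 on the log2 scale (limma adjusted p = 0.000756). Of 8 mast cell and basophil markers, 6 fell (7 lower at an unadjusted p under 0.05, median -3.30, summed signal 7.90 to 10.7 on the arrays labelled knockout and 18.8 to 30.3 on the control arrays). Of 9 neutrophil markers, 1 fell, and all 9 were lower at an unadjusted p under 0.05 (median -2.21, summed signal 39.2 to 56.2 on the arrays labelled knockout and 70.9 to 76.2 on the control arrays). Without replicate 1 labelled knockout, 6 of the neutrophil markers fell, while leaving out any other array left 1 called. The part of these cells in the values of Lair1, Plac8, Tyrobp and Cd300lb was not tested.

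Of 8 natural killer and innate lymphoid markers, 3 rose (4 higher and 2 lower at an unadjusted p under 0.05, median 0.85), and their summed signal was 27.1 to 30.1 on the arrays labelled knockout and 23.4 to 36.3 on the control arrays. Nkg7, a cytotoxic granule gene, rose by a log2 fold change of 2.24 (limma adjusted p = 0.000571). The other two were Gzma, another granule gene, and Eomes, a transcription factor of natural killer cells (limma adjusted p = 0.0208 and 0.0165). Without replicate 1 labelled knockout their limma adjusted p was 0.11 and 0.0723, and without replicate 3 labelled knockout 0.102 and 0.0772, which left 1 called gene, Nkg7, each time. Gzma also missed the threshold without replicate 2 labelled knockout (limma adjusted p = 0.0731), and Eomes without control replicate 4 (limma adjusted p = 0.0514). The rest of the list was not called. Klrk1, Klrd1 and Prf1 had log2 fold changes below 0 (-0.67, -0.58 and -0.16), and Il2rb and Tbx21 above 0 (2.75 and 0.52). Ncr1 and Klrb1c did not pass the filter on dim signals and were not tested. None of 8 T lineage markers was called (median 0.14, none at an unadjusted p under 0.05), with summed signals of 5.10 to 6.58 on the arrays labelled knockout and 4.19 to 5.65 on the control arrays. None of 8 B lineage markers was called (median 0.29, 1 at an unadjusted p under 0.05), with summed signals of 15.7 to 19.9 on the arrays labelled knockout and 16.1 to 22.1 on the control arrays. T and natural killer cells also make Lag3, whose log2 fold change was -0.74, and their part in its value was not tested.

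Among the other dendritic cell types, 1 of 6 tested markers of type 1 conventional cells rose, Gcsam, by a log2 fold change of 2.25 (limma adjusted p = 0.00542), and the list's median was -0.07 (1 higher and 1 lower at an unadjusted p under 0.05). Their summed signal was 35.2 to 47.6 on the arrays labelled knockout and 30.0 to 42.1 on the control arrays. Of 9 markers of type 2 conventional cells, Tnfsf4 was at least 11.5-fold higher (limma adjusted p = 1.85e-05) and Clec10a, a galactose-type lectin, fell by 2.28 on the log2 scale (limma adjusted p = 0.000527), with a median of -0.11 (1 higher and 3 lower at an unadjusted p under 0.05). Tnfsf4 cleared background on 3 arrays labelled knockout and on 0 control arrays. It thus passed the filter only through the group where it was higher, and its p-value sets signal against background. Without any one array labelled knockout, Tnfsf4 did not pass the filter on dim signals and was not tested. Their summed signal was 88.2 to 102 on the arrays labelled knockout and 116 to 137 on the control arrays.

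**Figure D4:**
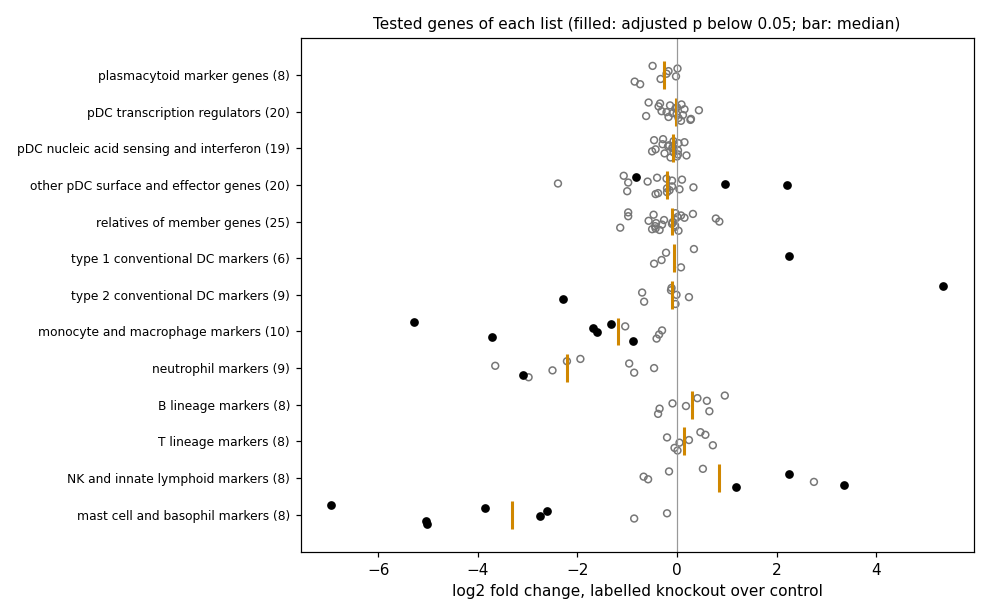
Log2 fold change, arrays labelled knockout over control arrays, of each tested gene in 13 lists (rows, with the number of tested genes in brackets). Filled points passed an adjusted p of 0.05 and bars mark list medians. The 8 plasmacytoid marker genes, each at its brightest probe, lie between -0.85 and 0.01, none filled, while 6 of 10 monocyte and macrophage markers and 6 of 8 mast cell and basophil markers are filled below 0.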

How the data were processed

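The authors deposited the scanner output of each array, which per the file headers gives spot intensity from version 10.7.3.1 of Agilent Feature Extraction. Probes carry accessions only, and 26413 of 55681 (47.4%) were named by matching these, without versions, to RefSeq of GRCm38.p6 (the annotation in the array files is of an older build). Main values are log2 of the processed signal minus that of the 75th percentile of non-control spots on the same array. Flagged outlier spots were dropped and the spots of a probe averaged. The test covered the 34084 probes that cleared background on 3 or more of 7 arrays, each as a feature of its own. The fit used limma 3.58.1 (lmFit and eBayes, R 4.3.3) with Benjamini-Hochberg adjustment and a threshold of 0.05. Folds given as "at least" set the mean of the brighter group against a floor in the dimmer one: on each array its lowest signal well above background, or the probe's value where that was higher. Adjusted p-values printed with these folds come from the fit without floors. The summed signal of a list adds up its tested genes on the linear scale.

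The deposited series table holds log2 values centred on each probe's median over the 7 arrays, as found by comparing it with the scanner values, since the submitters state neither scale nor direction. Differences between arrays ran the same way in both, and column medians were 0 except for replicate 3 labelled knockout, at -0.02. It served as an alternative. Other alternatives were normexp background correction of the median signal (offset 50), other scalings, filters and floors, kept outlier spots, another variance model, array weights, 1 probe per gene, the replicate block, and leaving out each array. Named from the other lists were up to 4 called genes per direction, or up to 2 as values, and 7 genes fixed by name. One gene that this rule selects is not reported here.

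On simulated data with the means and spreads of these 34084 probes, 25.2% of probes changed by 1 on the log2 scale and 85.2% of those changed by 2 were called, and 5.64% of calls were unchanged probes. The number of arrays limits the precision. Members and lists were chosen with earlier results of these data known.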

Additional observations from a re-analysis of the deposited data

Results flagged for a closer look

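In 2 of 48 probes examined, 1 of the 4 control arrays stood far from the others by Dixon's test, which chance does in about 1 of 20 groups. For Ly6d, control replicate 2 read 6.11, above 5.81, 5.83 and 5.84 on the others. For Irf8, control replicate 1 read 6.02, below 6.10, 6.11 and 6.11. Without control replicate 2 the log2 fold change of Ly6d was -0.26 (limma adjusted p = 0.605).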

How the results depend on the processing

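With the settings used here 0 marker probes were called, and 5 had an unadjusted p under 0.05. The count of marker probes called lower was 3 with normexp background correction (Siglech A_55_P2165790, Lair1 A_55_P1991214 and Lag3). It was 2, the first 2 of these, without a filter, with a filter on all 7 arrays, with a trended and robust variance, and with array weights, and 1, Lair1 A_55_P1991214, with 1 probe per gene. It was 0 in the other alternatives and without any one array, and none was called higher in any alternative. Values that were not called changed sign as follows. The range with 1 array left out was -0.10 to 0.15 for Siglech A_55_P2141013, -0.14 to 0.09 for Pacsin1 A_55_P2020602, -0.67 to 0.55 for Runx2 A_52_P55876, -0.07 to 0.18 for Tcf4, -0.25 to 0.03 for Irf7 and -0.06 to 0.08 for Tlr9. With the replicate block Siglech A_55_P2141013 came to -0.10 and Pacsin1 A_55_P2020602 to 0.02. With quantile normalization Pacsin1 A_55_P2020602 came to 0.03, Plac8 A_55_P1962305 to 0.02 and Bst2 to 0.01, with median scaling Pacsin1 A_55_P2020602 to 0.05, and with array weights Tlr9 to -0.04.

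Over all tested probes, 288 were higher and 178 lower, so 61.8% of calls were higher. These counts were 280 and 300 with normexp correction (48.3% higher), 847 and 9267 without a filter (8.37% higher), 206 and 196 with a filter on all 7 arrays, 189 and 150 with a filter on 2 arrays of each group, 445 and 310 with array weights, and 81 and 67 with the replicate block. With 1 array left out, they ranged from 83 to 248 higher and from 95 to 158 lower, the lowest of each without replicate 3 labelled knockout. The higher count was also 106 and 168 without replicates 1 and 2 labelled knockout. The cause was not tested. Deviations of same-numbered arrays correlated at -0.06, -0.08 and -0.02 across probes, and those of differently numbered arrays at -0.18 to 0.17. With so few arrays per group, these values cannot show whether a shared number marks a shared animal or day. Probes near background limit what Lag3, the Runx2 probes and the dim Pacsin1 and Lair1 probes can show.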
